A study of Homo sapiens with 12 samples.

Results

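Receptor tyrosine kinases of the EGFR family, the receptors MET and AXL, ligands of EGFR and the EGFR inhibitor ERRFI1 were examined in sorafenib-resistant and parental hepatocellular carcinoma cells. The 10 genes were EGFR, ERBB2, ERBB3, MET, AXL, AREG, EREG, HBEGF, TGFA and ERRFI1. They were picked by symbol as genes of bypass receptor signalling. The rule used no measured value, but the choice was made with earlier results of these data known. They make up 10 of the 27249 genes with an Ensembl identifier. RNA was sequenced from Huh7 and HepG2 cells, both human lines labelled as hepatocellular carcinoma cells with a wild-type genotype, with 3 samples in each of 4 groups. Resistant cells had first received sorafenib, a multikinase inhibitor, at 10 μmol, and survivors were carried on with rising doses for 8 months. Parental cells are labelled as sorafenib sensitive. Whether a resistant line was grown from 1 clone, and whether the drug was in the medium at harvest, is not given in the sources used here. Nothing says that the samples of a group were separate cultures, so p-values measure the spread between these samples, which may be technical.

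EGFR binds several small ligands, among them amphiregulin (AREG), epiregulin (EREG), heparin-binding EGF (HBEGF) and TGF-α (TGFA), which are made as membrane proteins and released by proteases. Bound receptor pairs with another EGFR or with ERBB2 or ERBB3 and drives RAS-ERK and PI3K-AKT signalling. ERBB2 has no known ligand of its own, ERBB3 has little kinase activity, and ERRFI1 (MIG6) binds the EGFR kinase domain and blocks it. MET, the receptor of hepatocyte growth factor, and AXL, the receptor of GAS6, feed the same downstream pathways, and in liver cancer these receptors are known as routes that can bypass a kinase inhibitor.

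The deposited values carry no stated unit and behave as FPKM, reads scaled by gene length and depth, with 12290278 to 19284756 reads behind a sample. Parental HepG2 libraries were the shallowest, at 12290278 to 15728706 reads against 16935472 to 18280478 in resistant HepG2. All 10 hepatocyte and liver cancer markers averaged at least 1 FPKM in every group. Of the markers of other cells, PDGFRB (2.07 to 3.58 FPKM by group), PECAM1 (1.34 to 3.13 FPKM) and LYZ (4.93 to 5.32 FPKM in HepG2) were the highest, and the other defining markers of stroma and endothelium averaged under 1 FPKM. Of the leukocyte markers, PTPRC and CD14 reached 1.09 and 1.58 FPKM. In Huh7 the log2 difference between resistant and parental cells was higher for genes of higher GC content (Spearman 0.62 across genes, which are not independent replicates), whereas in HepG2 it hardly did (0.04). For this reason Huh7 values are also given with that trend taken off, and for the receptors HepG2 values too. In this bulk RNA, fewer cells of a type and less RNA per cell cannot be told apart.

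**Figure D1:**
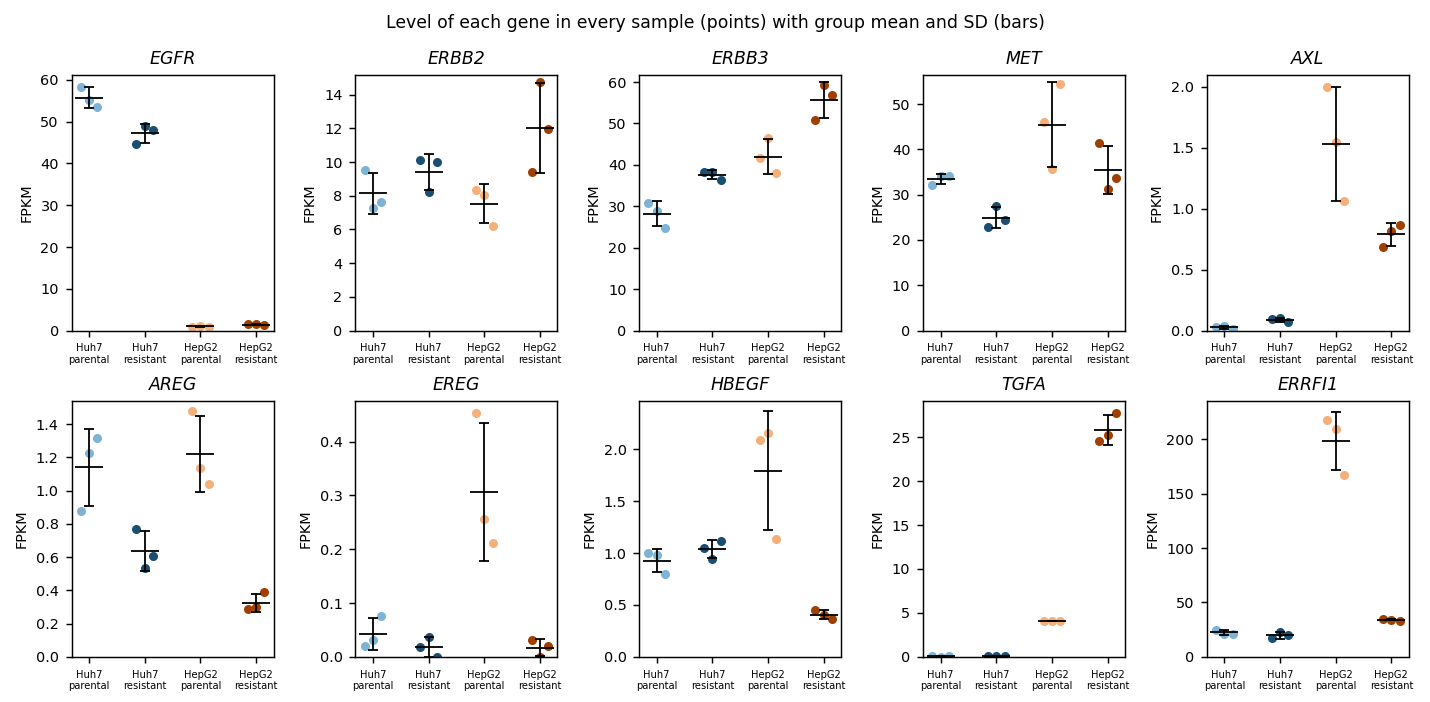
FPKM of the 10 genes in each of the 12 samples, 1 panel per gene with its own axis from 0, with points for samples and bars for the group mean and SD (n = 3). EGFR is high in both Huh7 groups and near 1 FPKM in HepG2, TGFA stands out in resistant HepG2 at 24.5 to 27.7 FPKM, and ERRFI1 stands out in parental HepG2 at 167 to 217 FPKM.

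Resistant cells were compared with parental cells by limma on log2(FPKM + 1) over the genes that reached 1 FPKM in 3 or more samples of the fit. A gene was called higher or lower where the p-value adjusted after Benjamini and Hochberg was under 0.05 and the log2 difference lay beyond 1. None of the 5 members tested in Huh7 (EGFR, ERBB2, ERBB3, MET and ERRFI1) was called, beside 22.6% of all 12554 genes tested. An unadjusted p-value under 0.05 was reached by 3 of the 5 at any fold and by 0 beyond the fold threshold, and limma-voom on reads calculated back also called 0, beside 34.2% of all genes. At any fold, 2 of the 5 (ERBB3 and MET) had an adjusted p-value under 0.05, beside 70.1% of all genes. In HepG2, 9 members were tested and 2 were called, TGFA higher and ERRFI1 lower, beside 6.27% of 11762 genes. With HBEGF and AREG, 4 of the 9 had an adjusted p-value under 0.05 at any fold, beside 20.0% of all genes. AXL, AREG and HBEGF passed the filter in HepG2 through the parental samples alone, so the number of members tested there is not independent of their direction. All 10 genes were then compared by limma-voom on reads calculated back with no filter, a fit added after the data had been seen. That fit called 1 of 10 in Huh7 (AXL), beside 27.0% of all genes, and 5 of 10 in HepG2, beside 7.54%.

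**Figure D2:**
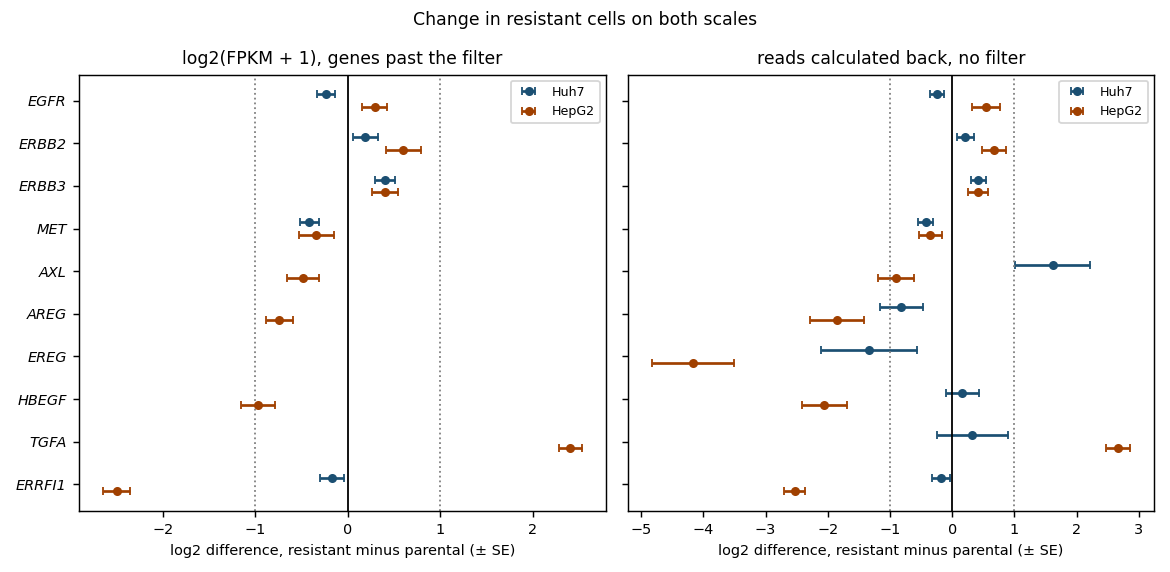
Log2 difference of resistant against parental cells with its SE in Huh7 and HepG2, on log2(FPKM + 1) for the genes that passed the filter (left) and by limma-voom with no filter for all 10 genes (right), with dotted lines at a log2 difference of 1 in either direction. In the left panel TGFA at 2.41 and ERRFI1 at -2.50, both in HepG2, lie beyond the dotted lines.

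Among the receptors, EGFR (chr7:55019021-55211628, plus strand, GRCh38, as all gene positions here) set the lines apart. In parental Huh7 cells EGFR was measured at 58.4, 55.2 and 53.6 FPKM, and in resistant Huh7 cells at 44.7, 49.0 and 48.0 FPKM. The groups did not overlap, with the 3 resistant samples below the 3 parental ones. The difference was -0.23 on the log2(FPKM + 1) scale (SE 0.10), with an adjusted p-value of 0.0602 by limma, and -0.28 (adjusted p = 0.0028) with the GC trend taken off. HepG2 cells held little EGFR, at 0.949, 1.09 and 0.884 FPKM in parental and 1.46, 1.49 and 1.29 FPKM in resistant samples. The resistant samples were all above the parental ones, but the log2 difference of 0.29 (SE 0.14) had an adjusted p-value of 0.167. It was 0.23 (adjusted p = 0.165 by limma) with the GC trend taken off.

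ERBB3 (chr12:56076799-56103505, plus strand), the partner that couples strongly to PI3K, was abundant in both lines. Its level was 30.9, 28.9 and 24.8 FPKM in parental and 38.3, 38.2 and 36.3 FPKM in resistant Huh7 cells. All resistant samples lay above all parental ones, and the log2 difference was 0.41 (SE 0.11, adjusted p = 0.0102 by limma), under the fold threshold. With the GC trend taken off it was 0.05 (adjusted p = 0.482). In HepG2, ERBB3 was measured at 41.6, 46.4 and 38.0 FPKM in parental and 50.8, 59.3 and 56.9 FPKM in resistant samples, again without overlap. The log2 difference there was 0.40 (SE 0.14, adjusted p = 0.0778). It was 0.33 (adjusted p = 0.0219 by limma) with the GC trend taken off, under the fold threshold.

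ERBB2 (chr17:39687914-39730426, plus strand) was the lowest of the 3 family members in Huh7, at 9.54, 7.26 and 7.65 FPKM in parental and 10.1, 8.19 and 9.99 FPKM in resistant cells. These ranges overlapped, and the log2 difference of 0.19 (SE 0.13, adjusted p = 0.226) turned to -0.34 (adjusted p = 0.0045) with the GC trend taken off. In HepG2 it was 8.33, 8.03 and 6.23 FPKM in parental against 9.42, 14.8 and 11.9 FPKM in resistant samples. No parental sample reached the lowest resistant one, and the log2 difference of 0.60 (SE 0.19) had an adjusted p-value of 0.0562. It was 0.49 (adjusted p = 0.0242 by limma) with the GC trend taken off and 0.67 (adjusted p = 0.0251) by limma-voom, both under the fold threshold. Of the ERBB2 exon bases, 571 (5.53%) are shared with MIEN1 on the opposite strand, and the library kit does not mark strand, so reads there cannot be assigned to either gene.

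MET (chr7:116672390-116798386, plus strand) was lower in resistant Huh7 cells, at 22.8, 27.5 and 24.5 FPKM against 32.2, 34.1 and 34.0 FPKM in parental cells. The groups were fully apart, with a log2 difference of -0.41 (SE 0.11, adjusted p = 0.0074), which did not pass the fold threshold and became 0.01 (adjusted p = 0.902) with the GC trend taken off. In HepG2 the MET ranges overlapped, at 46.2, 35.7 and 54.5 FPKM in parental and 41.3, 31.2 and 33.8 FPKM in resistant samples. It was the only member with overlapping groups in HepG2, and its log2 difference was -0.34 (SE 0.19, adjusted p = 0.230). With the GC trend taken off this difference was -0.43 (adjusted p = 0.0282 by limma), under the fold threshold. The transcript of HGF, the ligand of MET, was near absent, with 0 to 6 reads in every sample.

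AXL (chr19:41219203-41261766, plus strand) was close to the detection limit in Huh7, with 3, 3 and 1 reads (0.0324, 0.0345 and 0.0120 FPKM) in parental and 9, 10 and 7 reads (0.0920, 0.101 and 0.0714 FPKM) in resistant samples. Per read sequenced this was a ratio of 3.30, with an exact 95% interval of 1.40 to 9.02 that covers counting error only. The limma-voom fit with no filter gave a log2 difference of 1.61 (SE 0.61, adjusted p = 0.0298). HepG2 cells held more AXL and differed the other way, with 1.99, 1.55 and 1.06 FPKM in parental and 0.687, 0.817 and 0.868 FPKM in resistant samples. The groups did not overlap, and on log2(FPKM + 1) the difference was -0.49 (SE 0.17, adjusted p = 0.0817). By limma-voom with no filter it was -0.90 (SE 0.29, adjusted p = 0.0396), also under the fold threshold. With the GC trend taken off the limma difference was -0.56 (adjusted p = 0.0418). GAS6, the ligand of AXL, had 1 to 40 reads in a sample.

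Because FPKM is scaled by length, the 3 EGFR family receptors could be set side by side within a sample. The length here covers all annotated exons of a gene (12521 bases for EGFR, 10321 for ERBB2 and 9039 for ERBB3). It can differ from the length of the transcripts expressed, so the shares between receptors are approximate. EGFR made up 59.1%, 60.4% and 62.3% of their summed FPKM in parental Huh7 cells, and 48.0%, 51.4% and 50.9% in resistant ones. The share of ERBB3 differed the other way, with 31.3%, 31.6% and 28.9% in parental and 41.1%, 40.0% and 38.5% in resistant samples. The means went from 60.6% ± 1.58 (SD, n = 3) to 50.1% ± 1.82 for EGFR and from 30.6% to 39.9% for ERBB3. Each of these differences had a two-sided exact permutation p-value of 0.1, the smallest that 3 samples against 3 allow, so the design cannot reach 0.05. The ERBB2 share of 8.83% ± 0.851 and 10.0% ± 1.24 overlapped between the groups (exact permutation p = 0.3). With the GC trend taken off, an alternative chosen after the data had been seen, the Huh7 differences were smaller, at -4.30 percentage points for EGFR in place of -10.5 and 5.63 for ERBB3 in place of 9.32, and ERBB2 turned from 1.18 to -1.33. No share then overlapped between the Huh7 groups (exact permutation p = 0.1 for each). In HepG2, ERBB3 supplied 83.2% ± 1.28 in parental and 80.7% ± 1.98 in resistant cells, and EGFR 1.93% ± 0.0525 and 2.06% ± 0.279, and no share differed with an exact permutation p-value under 0.2.

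**Figure D3:**
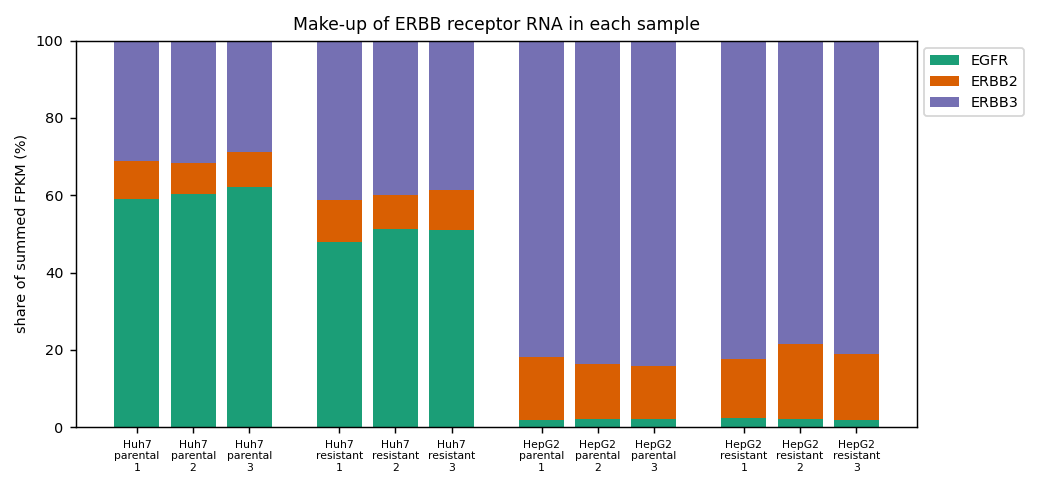
Share of EGFR, ERBB2 and ERBB3 in their summed FPKM, in percent, as 1 stacked bar for each of the 12 samples. EGFR holds 59.1% to 62.3% of a bar in parental Huh7, 48.0% to 51.4% in resistant Huh7 and 1.83% to 2.37% in HepG2, where ERBB3 fills 78.5% to 84.2%.

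The ligands and ERRFI1 held the members called in HepG2. The sequences upstream of the RefSeq start of 4 of them are shown so that the genes that moved in opposite directions can be set beside each other. Printed are 250 bases before the RefSeq start of AREG (chr4:74444886-74445135, plus strand), EREG (chr4:74364895-74365144, plus strand), TGFA (chr2:70553827-70554076, minus strand) and ERRFI1 (chr1:8026310-8026559, minus strand) on GRCh38. The TGFA window lies inside the gene span used for the reads, whose start on this strand is at 70554193, and so is downstream of that start. Capitals mark motif matches on either strand. The GC box was searched as GGGCGG, the TEAD motif as GGAATG and the TATA box as TATAAA. The AP-1 motif was searched as TGANTCA, the cAMP response element as TGACGTCA, and no matches overlap here.
AREG: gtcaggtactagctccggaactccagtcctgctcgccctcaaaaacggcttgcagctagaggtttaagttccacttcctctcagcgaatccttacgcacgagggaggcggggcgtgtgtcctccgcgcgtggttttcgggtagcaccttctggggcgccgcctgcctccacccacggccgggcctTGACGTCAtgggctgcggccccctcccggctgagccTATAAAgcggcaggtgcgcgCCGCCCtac
EREG: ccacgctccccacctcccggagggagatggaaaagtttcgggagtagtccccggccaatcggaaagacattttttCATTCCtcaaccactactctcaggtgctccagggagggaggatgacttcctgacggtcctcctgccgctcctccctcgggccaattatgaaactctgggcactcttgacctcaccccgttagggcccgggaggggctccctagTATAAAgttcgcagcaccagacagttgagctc
TGFA: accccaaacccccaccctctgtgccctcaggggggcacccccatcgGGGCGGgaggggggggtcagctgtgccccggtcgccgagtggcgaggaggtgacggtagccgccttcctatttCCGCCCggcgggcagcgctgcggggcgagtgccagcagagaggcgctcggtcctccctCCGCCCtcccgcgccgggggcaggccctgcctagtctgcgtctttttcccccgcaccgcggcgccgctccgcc
ERRFI1: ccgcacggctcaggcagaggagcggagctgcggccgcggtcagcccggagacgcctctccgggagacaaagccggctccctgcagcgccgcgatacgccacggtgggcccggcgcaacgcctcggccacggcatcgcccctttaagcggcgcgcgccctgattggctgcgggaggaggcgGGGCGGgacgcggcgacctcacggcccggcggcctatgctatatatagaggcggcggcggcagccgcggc
AREG and EREG both hold a TATAAA, beginning 29 and 32 bases before the start, a match found in 11.1% of 27305 RefSeq promoter windows. AREG also holds a cAMP response element 65 bases upstream, present in 1.77% of windows, and EREG a TEAD match 175 bases upstream, present in 11.9%. AREG holds a GC box as well, 9 bases upstream. Of the motifs searched, TGFA and ERRFI1 held only GC boxes, 3 and 1 of them, a match found in 42.3% of windows. Only the exact letters given were searched, so the tatatata near the end of the ERRFI1 window was not counted as a TATA box. HBEGF, not printed here, also held only GC boxes, 5 of them, while HBEGF was lower and TGFA higher in resistant HepG2 cells. AP-1 matches (6.60% of windows) were in none of the 4. These matches describe letters and not bound sites.

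TGFA (chr2:70447280-70554193, minus strand), the ligand TGF-α, rose in resistant HepG2 cells. It was measured at 4.07, 4.05 and 4.04 FPKM in the parental samples and at 24.5, 25.2 and 27.7 FPKM in the resistant ones. All resistant samples were far above all parental ones, whose SD was 0.0157. The mean was 6.38-fold higher, with a log2(FPKM + 1) difference of 2.41 (SE 0.13, adjusted p = 6.34e-05 by limma). In Huh7 TGFA was near the floor, with 11, 3 and 4 reads (0.124, 0.0359 and 0.0499 FPKM) in parental and 8, 6 and 9 reads (0.0850, 0.0627 and 0.0954 FPKM) in resistant samples. A difference was not detectable at this depth, with a read ratio of 1.14 and an exact 95% interval of 0.587 to 2.24. The limma-voom difference with no filter was 0.32 (SE 0.57, adjusted p = 0.695).

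The other 3 ligands were lower in resistant HepG2 cells. HBEGF (chr5:140332843-140346631, minus strand), a ligand that also binds ERBB4, was measured at 2.09, 2.16 and 1.14 FPKM (83, 80 and 54 reads) in parental and 0.450, 0.399 and 0.366 FPKM (23, 22 and 19 reads) in resistant samples. The mean was 4.44-fold higher in parental cells, but at these low levels the log2(FPKM + 1) difference was -0.97 (SE 0.18, adjusted p = 0.0096), just short of the fold threshold. AREG (chr4:74445134-74455009, plus strand), a low-affinity EGFR ligand, was at 1.48, 1.14 and 1.04 FPKM (32, 23 and 27 reads) in parental and 0.287, 0.299 and 0.388 FPKM (8, 9 and 11 reads) in resistant samples. Its mean was 3.76-fold higher in parental cells, with a log2(FPKM + 1) difference of -0.74 (SE 0.15, adjusted p = 0.0116). For neither gene did the groups overlap.

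The pseudocount of 1 shrinks such differences, and both genes passed both thresholds where it was smaller or absent. With a pseudocount of 0.1 the log2 difference was -1.86 for HBEGF and -1.63 for AREG, and 4 of the 9 tested members were called, beside 9.36% of all genes. Limma-voom with the filter also called 4, beside 9.84%. By limma-voom with no filter it was -2.05 (SE 0.37, adjusted p = 0.0003) for HBEGF and -1.85 (SE 0.44, adjusted p = 0.0048) for AREG. With the pseudocount of 1 kept and the GC trend taken off, HBEGF was also called, at -1.03 (adjusted p = 0.0049 by limma). AREG was not called in that setting, at -0.81 (adjusted p = 0.0063).

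EREG (chr4:74365143-74388751, plus strand), a ligand of EGFR and ERBB4, did not reach the filter in either line. Parental HepG2 samples held 34, 18 and 19 reads (0.453, 0.256 and 0.211 FPKM) and resistant ones 3, 0 and 2 reads (0.0310, 0 and 0.0203 FPKM). Every parental sample was above every resistant one, although the parental libraries were shallower. Per read sequenced EREG was 18.1-fold lower in resistant cells, with an exact 95% interval of 7.40 to 57.4 for counting error only. The limma-voom fit with no filter gave a log2 difference of -4.17 (SE 0.66, adjusted p = 7.72e-05).

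In Huh7 the same 3 ligands gave no call. AREG was measured at 0.879, 1.22 and 1.31 FPKM (26, 34 and 35 reads) in parental and 0.768, 0.535 and 0.606 FPKM (24, 17 and 19 reads) in resistant cells. The groups did not overlap, and limma-voom with no filter gave a log2 difference of -0.82 (SE 0.35, adjusted p = 0.0602). HBEGF was at 0.997, 0.984 and 0.80 FPKM in parental and 1.05, 0.945 and 1.12 FPKM in resistant samples, and its ranges overlapped. Its log2 difference in the same fit was 0.16 (SE 0.26, adjusted p = 0.676). EREG had 2, 3 and 7 reads in parental and 2, 4 and 0 reads in resistant samples, too few to tell apart, with a read ratio of 0.445 (exact 95% interval 0.137 to 1.28).

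ERRFI1 (chr1:8004404-8026308, minus strand), the inhibitor that EGFR signalling itself induces, fell in resistant HepG2 cells. It was measured at 217, 210 and 167 FPKM in the parental samples and at 34.6, 34.1 and 33.4 FPKM in the resistant ones. The lowest parental sample was well above the highest resistant one. The mean was 5.82-fold higher in parental cells, with a log2(FPKM + 1) difference of -2.50 (SE 0.15, adjusted p = 8.72e-05 by limma). In Huh7 ERRFI1 was at 24.9, 20.9 and 21.4 FPKM in parental and 17.0, 23.1 and 19.7 FPKM in resistant samples. Those ranges overlapped, with a log2 difference of -0.17 (SE 0.13, adjusted p = 0.281) that became 0.16 (adjusted p = 0.183) with the GC trend taken off. Of the ERRFI1 exon bases, 3.70% are shared with AL034417.4 on the opposite strand, which averaged 0.513 to 0.866 FPKM by group.

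Counted over all 10 genes, the resistant and parental samples did not overlap for 5 members in Huh7 (EGFR, ERBB3, MET, AXL and AREG) and for 9 in HepG2 (all but MET). Among genes that passed the filter, 74.5% in Huh7 and 40.4% in HepG2 had groups that did not overlap, and for the members tested this was 3 of 5 and 8 of 9. Over all genes the median log2 difference was -0.04 for Huh7 and 0.12 for HepG2. No member turned direction in HepG2 under upper-quartile or median-ratio scaling.

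Whether the change with resistance differed between the lines was tested over the 12 samples as an interaction term, with a call at an adjusted p-value under 0.05. Of the 9 members tested, 5 were called, beside 56.3% of all 13800 genes. AXL and TGFA passed the filter of this fit through HepG2 samples alone. The comparisons between lines use the same fit and filter, so the number of members tested there is not independent of their levels. TGFA changed by 2.39 more in HepG2 than in Huh7 on the log2(FPKM + 1) scale (SE 0.12, adjusted p = 2.47e-07). ERRFI1 (-2.33, SE 0.19, adjusted p = 4.53e-06) and HBEGF (-1.05, SE 0.19, adjusted p = 0.0009) had the lower change in HepG2. EGFR differed by 0.53 (SE 0.12, adjusted p = 0.0041), with its lower level in resistant Huh7 and its higher level in resistant HepG2. AXL differed by -0.57 (SE 0.17, adjusted p = 0.0139), but with the GC trend taken off this was -0.25 (adjusted p = 0.279).

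The remaining 4 did not pass this test, which does not show that the lines changed alike. The interval of the difference was -0.35 to 0.34 for ERBB3, -0.40 to 0.55 for MET, -0.11 to 0.93 for ERBB2 and -0.70 to -0.01 for AREG, all 95% and on the log2(FPKM + 1) scale. The median of all genes was itself 0.15 in this contrast. With the GC trend taken off, adjusted p-values under 0.05 were reached by ERBB2 (0.78, adjusted p = 0.0013), MET (-0.41, adjusted p = 0.0233) and AREG (-0.55, adjusted p = 0.0221).

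The 2 parental lines started from different receptor and ligand levels. Of 9 members tested between parental Huh7 and parental HepG2, 4 were called, beside 30.2% of all genes. AXL and TGFA passed the filter through HepG2 samples alone and were called higher there, so this count is not independent of their direction. The mean EGFR level was 57.3-fold higher in Huh7 (log2(FPKM + 1) difference 4.85, SE 0.09, adjusted p = 1.27e-11). HepG2 held more AXL (-1.29, SE 0.12, adjusted p = 2.13e-06), TGFA (-2.24, SE 0.09, adjusted p = 1.25e-09) and ERRFI1 (-3.08, SE 0.13, adjusted p = 2.79e-09). The pseudocount shrinks the first 2 of these, which rest on 7 and 18 reads in the Huh7 group. Per read sequenced, AXL was 56.4-fold (exact 95% interval 27.1 to 141) and TGFA 56.9-fold (35.8 to 96.5) higher in HepG2. These intervals cover counting error only. The mean of ERRFI1 was 8.84-fold higher. HepG2 was also higher in ERBB3, MET and HBEGF with adjusted p-values of 0.0009, 0.0317 and 0.0057, short of the fold threshold, so that 7 of the 9 were under 0.05 at any fold (67.2% of all genes). For MET the adjusted p-value reached 0.127 over the alternatives. Over all 10 genes, 8 had parental ranges that did not overlap between the lines (7 of the 9 tested, beside 68.7% of all genes). For ERBB2 and AREG the ranges overlapped, and the log2 differences were 0.10 (95% interval -0.26 to 0.47) and -0.05 (-0.30 to 0.19). The sign of the ERBB2 difference turned under median-ratio scaling, at -0.05, a scaling that takes off the median of 0.18 over all genes.

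Between resistant Huh7 and resistant HepG2 cells, 2 of 9 members were called, beside 26.6% of all genes. EGFR was 33.4-fold higher in Huh7 (4.32 on the log2(FPKM + 1) scale, SE 0.09, adjusted p = 1.68e-11). TGFA was lower in Huh7 by a difference of -4.63 (SE 0.09, adjusted p = 9.57e-12), which in reads was 319-fold with an exact 95% interval of 213 to 504. ERRFI1, AXL, ERBB3 and MET were also higher in resistant HepG2, and HBEGF and AREG in resistant Huh7, with adjusted p-values from 0.0003 to 0.0325 and differences under the fold threshold, so that 8 of the 9 were under 0.05 at any fold (64.1% of all genes). AXL and HBEGF passed both thresholds with a pseudocount of 0.1 (log2 differences -2.24 and 1.17) and by limma-voom (-3.10 and 1.34). These settings called 5163 and 5295 genes in all, in place of 3677. Over the alternatives the adjusted p-value reached 0.118 for AREG and 0.0643 for MET, above the threshold. The ranges of the resistant lines did not overlap for 8 of the 10 genes (8 of the 9 tested, beside 70.2% of all genes). HBEGF stood higher in HepG2 among parental cells (mean 1.80 against 0.927 FPKM) and higher in Huh7 among resistant cells (1.04 against 0.405 FPKM). These between-line contrasts use the same samples as the comparisons within a line.

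Ordered by mean level, EGFR ran from parental Huh7 (55.7 FPKM) and resistant Huh7 (47.2) to resistant HepG2 (1.41) and parental HepG2 (0.973), and the neighbours within a line had adjusted p-values above 0.05. ERRFI1 ran from parental HepG2 (198 FPKM) to resistant HepG2 (34.0), parental Huh7 (22.4) and resistant Huh7 (19.9), of which the Huh7 groups did not differ beyond their spread. TGFA ran from resistant HepG2 (25.8 FPKM) to parental HepG2 (4.05), with both Huh7 groups (0.0810 and 0.0698) overlapping. ERBB3 and MET spanned less than these genes, from 28.2 to 55.7 and from 24.9 to 45.5 FPKM.

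Other genes of these pathways were read from 5 lists with 57 genes, covering other ligands, other receptors, ligand shedding and activation, adaptors and relays, and receptor down-regulation. In Huh7, 44 were tested, and 8 were called higher and 9 lower, beside 8.59% and 14.0% of all genes. Of the called genes, ST14 and CBLC passed the filter through resistant samples alone, and NRG3 through parental samples alone. The number of listed genes tested is thus not independent of their direction. In HepG2, 43 were tested, and 0 were called higher and 1 lower, beside 3.29% and 2.98%. In HepG2 limma-voom called 0 higher and 3 lower, and at an unadjusted p-value under 0.05 with the same fold threshold there were 0 and 1. The median log2 difference of the lists was 0.12 in Huh7, beside -0.04 over all genes, and -0.15 in HepG2, beside 0.12.

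Genes called higher in Huh7 are given first. GRB7, an adaptor that binds ERBB2 and starts 7500 bases after the end of ERBB2 on chromosome 17, rose there from 1.15 ± 0.163 to 15.4 ± 2.38 FPKM (SD, n = 3 in each group; log2 difference 2.92, adjusted p = 4.45e-06). CBLC, a ubiquitin ligase of the CBL family, rose from 0.675 ± 0.176 to 10.5 ± 1.48 FPKM (log2 difference 2.77). SPINT1, an inhibitor of the HGF activating proteases, rose from 1.89 ± 0.410 to 14.9 ± 2.17 FPKM (2.46), and ST14, the protease matriptase, from 0.380 ± 0.0893 to 4.72 ± 0.897 FPKM (2.04). EGF, the founding ligand of EGFR, rose from 1.54 ± 0.173 to 7.06 ± 0.906 FPKM (1.66). Also in Huh7, TYRO3, the called gene of the list of other receptors, rose from 7.88 ± 1.40 to 18.5 ± 2.81 FPKM. Its log2 difference was 1.14 (adjusted p = 0.0003 by limma), and 0.73 with the GC trend taken off, under the fold threshold. In HepG2, EGF and ST14 stayed under the filter in both groups, whereas GRB7 was at 20.6 to 35.8 FPKM in parental and 35.2 to 51.8 FPKM in resistant cells (log2 difference 0.61, adjusted p = 0.0910). CBLC averaged 8.88 FPKM in parental and 7.20 FPKM in resistant HepG2 cells, and SPINT1 0.954 and 0.904 FPKM, with overlapping ranges.

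Genes called lower in Huh7 included the ligand-releasing proteases ADAM10 (-1.38) and ADAM9 (-1.06), the RAS activators SOS1 (-1.25) and SOS2 (-1.23), the docking protein GAB1 (-1.41), ERBIN, which binds ERBB2 (-1.48), the deubiquitinase USP8 (-1.10) and the neuregulin NRG3 (-1.25). With the GC trend taken off, 6 of the lists' genes were called higher and 0 lower, beside 11.9% of all genes in either direction, and an unadjusted p-value under 0.05 with the same fold threshold gave the same numbers. The 6 were GRB7, CBLC, SPINT1, ST14, EGF and the adaptor CRKL, the last named after its values were seen. The log2 differences of the 8 genes named as lower then lay between -0.37 for ADAM9 and -0.85 for NRG3.

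In HepG2 the called gene was GAB2, a docking protein downstream of receptor kinases, which fell from 6.93 ± 1.21 to 2.12 ± 0.371 FPKM (SD, n = 3 in each group; log2 difference -1.34, adjusted p = 0.0019). LRIG1, a membrane protein that lowers EGFR levels and is named here after its values were seen, was measured between 8.76 and 9.69 FPKM in parental samples and between 4.04 and 4.35 FPKM in resistant ones. Its log2 difference of -0.99 (SE 0.13, adjusted p = 0.0019) lay at the fold threshold. AREG and EREG lie 56382 bases apart on chromosome 4, next to the EGFR ligands EPGN and BTC. In HepG2 EPGN and BTC had 0 or 1 read in every sample, so the cluster could only be followed through EREG and AREG there.

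**Figure D4:**
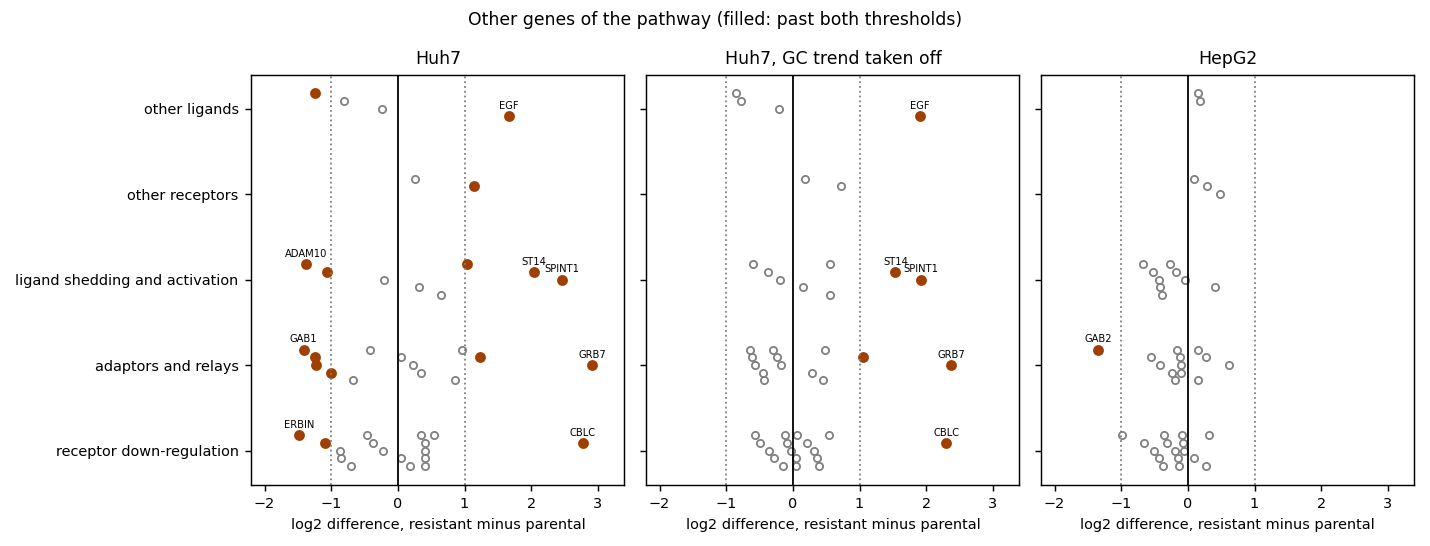
Log2(FPKM + 1) difference of resistant against parental cells for the tested genes of the 5 pathway lists, in Huh7 (left), in Huh7 with the GC trend taken off (middle) and in HepG2 (right), with 1 point per gene and filled points for genes past both thresholds. Filled points number 17 on the left, 6 in the middle, all of them higher, and 1 on the right.

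The genes whose log2(FPKM + 1) was most like that of a member over the 12 samples were found among 14182 genes, as a description over samples that fall into 4 groups of 2 lines. For EGFR these were CD24 (Pearson r 0.9995) and LDOC1 (0.999), of which LDOC1 was near absent in HepG2 (0.0700 FPKM in resistant and 0.0196 in parental cells) and CD24 averaged 3.88 and 2.61 FPKM there. For TGFA they were ANTXR1 (0.994) and TTC9 (0.993), and for ERRFI1 NFIL3 (0.995) and STPG1 (0.993). NFIL3 followed ERRFI1 with means of 127 FPKM in parental HepG2, 44.1 in resistant HepG2, 33.6 in parental Huh7 and 30.2 in resistant Huh7. MET was most like TARS (0.993) and MTMR6 (0.974), and ERBB3 most like GDE1 (0.987) and ANKRD16 (0.985). For the genes at low levels the likest were LDLRAD1 and LCN15 for AXL (0.991 and 0.99), LEPR and HIVEP2 for AREG (0.973 and 0.962) and SMAD3 and LZTS3 for HBEGF (0.959 and 0.949). ERBB2 had the weakest likeness, with MAN2C1 at 0.946 and ARID5A at 0.941. EREG did not average 1 FPKM in any group and was not compared.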

How the data were processed

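RNA of resistant and parental Huh7 and HepG2 cells, 3 samples in each of 4 groups, was analysed, with condition and replicate number taken from the labels. Each deposited table holds 1 value per gene and sample. The authors' unit is not stated. The deposited values behave as FPKM (RPKM cannot be told apart), since single-exon values times exon length (GENCODE 29, GRCh38, 27234 identifiers matched) fall within 0.05 of whole reads in 95.8% to 99.6% of values of up to 2000 reads, depending on the sample. The submitters' notes name GRCh38 and bcl2fastq, and aligner and counter are not given in the sources used here. RNA extraction is described differently in the labels and in the methods. The 71462 NONCODE rows were not used.

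Models were fitted with limma 3.58.1 in R 4.3.3 on log2(FPKM + 1), with a variance trend, for genes that reached 1 FPKM in 3 or more samples of the fit, and Python 3.11.15, pandas 2.3.3 and scipy 1.17.1 did the rest. The members, pathway lists and markers were chosen with earlier results of these data known. The members were always named, from each list at most 4 called genes per line with the largest change, and for each member that averaged 1 FPKM in a group the 2 genes with the most similar pattern. Promoter windows came from RefSeq on GRCh38 (GRCh38.p14), in which 9 of the 10 members were matched. On simulated data with 200 genes changed by a log2 fold of 2, 97.0% were recovered in Huh7 with 5 false calls among 12369 genes, and 99.5% in HepG2 with 2 among 11740. The simulated reads had 1 fixed dispersion and no GC trend, and the changed genes averaged between 2 and 200 FPKM. These rates thus do not cover genes at lower levels or the GC trend seen in Huh7. Alternatives were another pseudocount, other filters, scaling by upper quartile or median ratio, no variance trend, limma-voom on reads calculated back, removal of the GC trend (lowess, span 0.3), all samples in 1 fit, a replicate block and leaving out each sample. The limma-voom fit with no filter was added after the data had been seen.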

Additional observations from a re-analysis of the deposited data

Results flagged for a closer look

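Of the 9 members tested, 5 changed differently with resistance in HepG2 than in Huh7 by the interaction test in limma over all 12 samples (adjusted p-value under 0.05, as for 56.3% of all genes). The change in HepG2 minus the change in Huh7, on the log2(FPKM + 1) scale, was 2.39 for TGFA, -2.33 for ERRFI1, -1.05 for HBEGF, -0.57 for AXL and 0.53 for EGFR. The resistant samples were above the parental ones in HepG2 and below them in Huh7 for EGFR, in all 3 samples of each group, and the reverse held for AXL. For TGFA, ERRFI1 and HBEGF the Huh7 groups overlapped. In Huh7, TGFA and AXL rest on 11 reads or fewer in each sample, and both passed the filter through HepG2 samples alone. The part of read depth in these differences was not tested. Groups of 3 samples were not tested for samples that stand apart.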

How the results depend on the processing

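TGFA and ERRFI1 kept their calls in HepG2 under every alternative run, with log2 differences of 2.30 to 2.67 and -2.62 to -2.43. The genes called in Huh7 numbered 2838, but 4295 by limma-voom, 1487 with the GC trend taken off and 6937 by limma-voom with no filter (a change of model and filter together), and 2133 to 3006 without each sample in turn. That combined change called 1 member in Huh7, and of the pathway lists 6 genes in place of 17 were called with the GC trend taken off. In HepG2, 737 genes became 1157 by limma-voom and 1872 by limma-voom with no filter, and median-ratio scaling split the calls into 285 higher and 447 lower in place of 387 and 350. Called members in HepG2 rose from 2 to 3 with the GC trend taken off or with median-ratio scaling, which called 723 and 732 genes in all. They rose to 4 with a pseudocount of 0.1 or by limma-voom and to 5 by limma-voom with no filter. Without any 1 parental HepG2 sample AXL, AREG and HBEGF were no longer tested. The pathway list calls in HepG2 went from 1 to 2 with upper-quartile scaling, median-ratio scaling or the GC trend taken off, to 3 with the pseudocount of 0.1 or limma-voom and to 4 by limma-voom with no filter, and were 1 to 2 without each sample, with 2 without resistant replicate 3 or parental replicate 2.

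A filter of 10 reads in every sample left 3 called members in the interaction, 2 of 4 between parental lines (2683 genes in place of 4162) and 1 of 2 between resistant lines (2350 in place of 3677). Limma-voom with no filter called 8725 and 8065 genes between parental and resistant lines. It called 4 members between resistant lines (EGFR, TGFA, AXL and HBEGF), as did a pseudocount of 0.1 or limma-voom. Lifting the filter alone gave 2832 genes in Huh7, 608 in HepG2, 4223 between parental and 3684 between resistant lines, with 0, 2, 4 and 2 members. Signs turned with the GC trend taken off for ERBB2 (-0.34), MET (0.0078) and ERRFI1 (0.16) in Huh7 and for ERBB3 (0.24) and MET (-0.41) in the interaction. The MET interaction was also -0.055 with upper-quartile and -0.13 with median-ratio scaling, and ERBB2 between parental lines was -0.053 with median-ratio scaling. Leaving out single samples gave ranges on both sides of 0 for values that had passed no test, namely ERBB3 -0.076 to 0.078 and MET -0.086 to 0.21 in the interaction, ERBB2 -0.013 to 0.17 and AREG -0.11 to 0.037 between parental lines. MET between parental lines lost an adjusted p-value under 0.05 without any of 5 of the 6 parental samples, and between resistant lines MET did so without 2 single samples and AREG without 4. With the GC trend taken off, the Huh7 receptor shares differed by -4.30 (EGFR), -1.33 (ERBB2) and 5.63 (ERBB3) percentage points. The cause of these changes was not tested.

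Whether the replicate numbers pair the samples could not be settled, since the 3 deviations of a gene in a group sum to 0. Deviations of same-numbered samples had correlations of -0.23 to 0.08 in Huh7 and -0.01 to 0.44 in HepG2. Differently numbered samples had -0.33 to 0.28 and -0.42 to 0.21. With the replicate number as a block, 2841 genes were called in Huh7 and 779 in HepG2, with 0 and 2 members, ERBB2 (0.60) and ERBB3 (0.40) in HepG2 reached an adjusted p-value under 0.05, and AREG between resistant lines (0.30) lost it. Depth limited AXL, TGFA and EREG in Huh7 and AREG and EREG in resistant HepG2, each with at most 11 reads in a sample, and groups of 3 limited every comparison.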

Other observations

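Among the ligands that stayed under the filter in Huh7, NRG1, a neuregulin that binds ERBB3 and ERBB4, and BTC, betacellulin, are given here as values, chosen after they were seen. NRG1 was measured at 0.477, 0.456 and 0.568 FPKM (97, 87 and 104 reads) in parental Huh7 cells and at 0.135, 0.137 and 0.102 FPKM (29, 30 and 22 reads) in resistant ones. BTC was at 35, 18 and 31 reads in parental and 3, 11 and 5 reads in resistant Huh7 cells. For neither gene did the groups overlap, as for 74.5% of all genes tested in Huh7, which had passed the filter that NRG1 and BTC did not. Their GC content was 43.9% and 40.2%, beside a median of 46.7% over tested genes, and the GC trend was not taken off for them. In HepG2, NRG1 had 0 to 6 reads in a sample and BTC 0 or 1. Of the other ligands under the filter in Huh7, GAS6 lay the other way without overlap. It had 1, 1 and 1 reads in parental and 3, 10 and 8 reads in resistant Huh7 cells. NRG4 overlapped, at 44, 49 and 53 reads in parental and 50, 49 and 44 reads in resistant cells. EPGN was lower without overlap, at 8, 10 and 5 reads in parental and 2, 1 and 3 reads in resistant cells.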
